A study of Mus musculus with 35 samples.

Results

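Glyceroneogenesis is the route by which a fat cell builds glycerol 3-phosphate, the backbone of triglyceride, from pyruvate or lactate instead of glucose. Pyruvate carboxylase makes oxaloacetate, phosphoenolpyruvate carboxykinase turns it into phosphoenolpyruvate, and glycerol-3-phosphate dehydrogenase closes the route. White fat cells are known for having little glycerol kinase, so glycerol freed by lipolysis largely leaves the cell. The genes of this traffic described here are 5 of the 17958 transcript clusters on the array: Pck1, the cytosolic carboxykinase; Gpd1, the cytosolic dehydrogenase; Aqp7, a membrane channel that lets glycerol out; Pdk4, a kinase that switches pyruvate dehydrogenase off; and Mpc1, a subunit of the carrier that brings pyruvate into mitochondria. They were picked by name, with their response to rosiglitazone and the strain dependence of Pck1 already known from these arrays. Those values are therefore given as a description, with no test. A member was read from the cluster annotated with its symbol alone, and each of the 5 genes had 1 such cluster.

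Expression was measured on 35 Mouse Exon 1.0 ST arrays, 1 per culture of adipocytes grown from precursors of inguinal subcutaneous fat of SV129 or C57BL/6J mice. Cultures were taken untreated at day 3 (4 arrays per strain), untreated at day 7 (control, 4 per strain), at day 7 with norepinephrine (NE, 5 per strain) or at day 7 with rosiglitazone (ROSI, 5 of SV129 and 4 of C57BL/6J). Drugs were given at 1 µM from the first day of culture. All media held insulin, ascorbate and newborn calf serum. ROSI is an agonist of the nuclear receptor PPARG, and NE acts through adrenergic receptors, some of which raise cyclic AMP. The labels used here do not say whether cultures of a group came from separate mice, so p-values measure only the spread between these cultures, which may be technical. Values are log2 intensities. The array medians lay between 8.03 and 8.24. The adipocyte markers Adipoq, Fabp4 and Plin1 were bright in every group, with group means from 11.20 to 13.50 among them. Of the other adipocyte markers used below, Lpl, Cd36 and Cebpa lay above the array medians in every group. Slc2a4 and Cidec were dimmer, with means of 8.03 and 8.12 in SV129 control, near the array medians. Adipocyte markers were lower on the SV129 ROSI arrays of replicates 1 and 6 than on the other 3, and progenitor markers higher. Their means over 8 adipocyte markers were 11.45 and 12.03, against 12.29 to 12.54 on the other 3. Over 4 progenitor markers they were 10.56 and 10.51, against 9.29 to 9.82. The ROSI values of the 5 genes are therefore given with and without both arrays. Both were the lowest of their group for Gpd1, Aqp7, Pdk4 and Mpc1. A larger SV129 change of these genes without them was thus built in.

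In the RefSeq annotation of GRCm38.p6, Pck1 lies on chromosome 2, Gpd1 on 15, Aqp7 on 4, Pdk4 on 6 and Mpc1 on 17. Promoters in the RefSeq table matched 4 of the 5 genes. The 250 bases before the start are shown for Pck1, Aqp7 and Pdk4. Capitals mark ACGTCA, the core of the cyclic AMP response element, and AGGTCA, the half-site that PPARG and related receptors bind, each searched on both strands, where the second reads TGACCT. Within a window, no 2 matches overlapped.
Pck1, chr2:173152823-173153072, plus strand: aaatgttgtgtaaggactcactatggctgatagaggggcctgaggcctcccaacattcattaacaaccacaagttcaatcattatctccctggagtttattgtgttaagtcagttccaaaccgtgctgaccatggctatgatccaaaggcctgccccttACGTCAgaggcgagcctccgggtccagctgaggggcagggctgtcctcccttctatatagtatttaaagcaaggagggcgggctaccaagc
Aqp7, chr4:41048137-41048386, minus strand: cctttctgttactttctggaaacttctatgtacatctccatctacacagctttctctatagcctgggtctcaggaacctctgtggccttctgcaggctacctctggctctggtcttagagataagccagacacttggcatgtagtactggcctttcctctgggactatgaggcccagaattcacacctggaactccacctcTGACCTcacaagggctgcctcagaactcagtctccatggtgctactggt
Pdk4, chr6:5496279-5496528, minus strand: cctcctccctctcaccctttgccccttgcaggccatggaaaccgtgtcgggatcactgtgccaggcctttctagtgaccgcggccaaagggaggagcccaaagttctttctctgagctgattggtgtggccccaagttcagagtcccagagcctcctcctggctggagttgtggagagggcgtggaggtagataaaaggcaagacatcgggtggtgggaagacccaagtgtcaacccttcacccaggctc
The Pck1 window held ACGTCA from base -91 to -86 of the start and no AGGTCA. The Aqp7 window held 1 AGGTCA match, from -49 to -44, and the Pdk4 window neither motif. A second Aqp7 window in the table, from another start, overlapped the first and held 2 AGGTCA matches (-223 to -218 and -101 to -96). The match from -223 to -218 is the same site as that from -49 to -44 in the first window. For Mpc1, 1 of 2 windows held 1 AGGTCA match (-244 to -239). Of 32851 such windows in the table, 6.47% held ACGTCA and 14.02% held AGGTCA. A tandem pair of AGGTCA 1 base apart was in 0.03% of them and in none of the members' windows. With so rare a match, its absence from so few windows says little. Only exact matches within these 250 bases were searched, so looser or more distant sites would be missed.

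Pck1 stood clear of all its other arrays in 1 group alone, the C57BL/6J cultures with ROSI. Its signal there was middling, above 45.7% to 52.7% of the clusters on the same array. Its log2 intensity there was 8.22, 8.29, 7.80 and 8.35 (mean 8.17, SD 0.25, n = 4). In the SV129 cultures with ROSI it was 6.91, 6.77, 7.00, 6.87 and 6.87 (mean 6.89, SD 0.08, n = 5). All C57BL/6J ROSI arrays lay above all the SV129 ones, and the gap from the lowest of them to the highest of the other 31 arrays was 0.80. Control arrays read 6.72, 6.62, 6.65 and 6.69 in SV129. In C57BL/6J controls the values were 6.62, 6.74, 6.71 and 6.65. The strains overlapped without the drug and differed by 0.01 (SE 0.03). With NE, SV129 gave 6.90, 6.88, 6.73, 6.86 and 6.67, and C57BL/6J gave 6.78, 6.68, 6.69, 6.73 and 6.68. At day 3 the values were 6.63, 6.79, 6.76 and 6.70 in SV129 and 6.81, 6.79, 6.79 and 6.77 in C57BL/6J. In the order of the group means, each of the 7 groups from SV129 control (6.67) to SV129 ROSI (6.89) overlapped its neighbour in this run, and only C57BL/6J ROSI was clear of its neighbour. These 7 groups lay in the dim range of the arrays, whose lower quartile averaged 6.44 and whose median averaged 8.13. Small differences among them are therefore close to the background of the method.

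**Figure D1:**
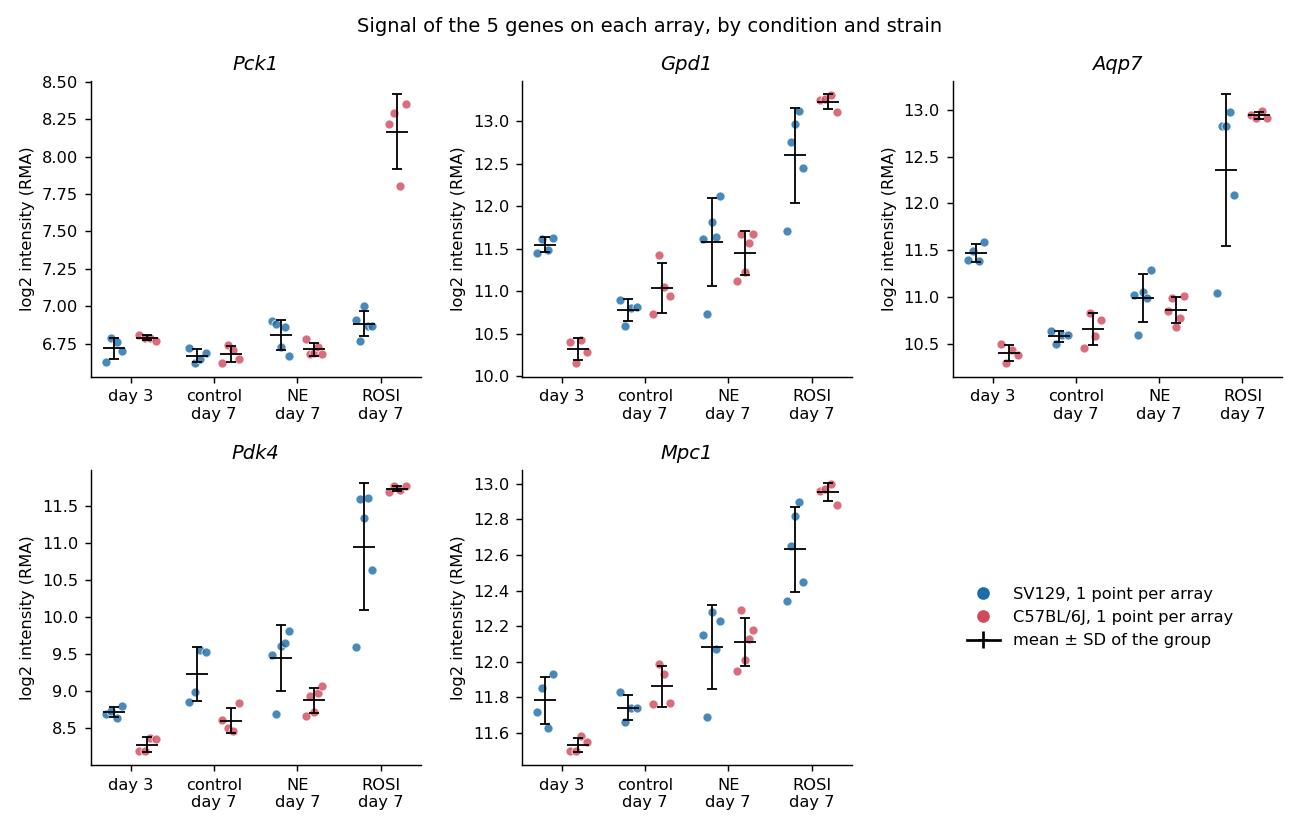
Log2 intensity (y axis) of each gene on every array, by condition (x axis) and strain (colour). Points are arrays, and bars are the group mean and SD. Pck1 was clear of its other arrays on the 4 C57BL/6J ROSI arrays only (7.80 to 8.35), where it was near the array medians. The other 4 genes were higher with ROSI in both strains, with SV129 replicates 1 and 6 below the rest of their group.

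ROSI was set against control in each strain. The change of Pck1 was 1.48 (SE 0.13) in C57BL/6J, which is 2.80-fold, and 0.21 (SE 0.04) in SV129, which is 1.16-fold. Without replicates 1 and 6 the SV129 change was again 0.21 (SE 0.07). In both strains the ROSI and control arrays did not overlap. In culture, fewer adipocytes and less RNA of a gene per adipocyte cannot be told apart. Of the adipocyte markers, 8 of 8 were higher with ROSI by limma (adjusted p under the threshold of 0.01), with Adipoq, an adipocyte hormone, up by 1.17, Fabp4, a fatty acid carrier, by 1.31 and Plin1, a lipid droplet coat protein, by 1.22. Averaged over the 8 markers, arrays ranged from 10.62 to 10.98 in SV129 control and from 11.45 to 12.54 in SV129 ROSI. In C57BL/6J they ranged from 10.99 to 11.35 and from 12.52 to 12.61. Of the 4 progenitor markers measured, 3 were lower with ROSI and 1 did not pass (median -0.85). Their mean over the list ranged from 10.30 to 10.85 in SV129 control and from 9.29 to 10.56 with ROSI. In C57BL/6J it ranged from 10.67 to 10.78 and from 9.53 to 9.59. In SV129 ROSI the adipocyte marker means of replicates 1, 2, 3, 4 and 6 were 11.45, 12.29, 12.40, 12.54 and 12.03. Pck1 on these arrays read 6.91, 6.77, 7.00, 6.87 and 6.87. The part of the marker shifts with ROSI in the members' values was not tested.

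Gpd1 reduces dihydroxyacetone phosphate to glycerol 3-phosphate. Its values with ROSI were 11.71, 12.76, 12.97, 13.12 and 12.45 in SV129 and 13.25, 13.26, 13.31 and 13.11 in C57BL/6J. Controls were between 10.59 and 10.90 in SV129 and between 10.73 and 11.43 in C57BL/6J, below every ROSI array of their strain. The change was 1.83 (SE 0.26) in SV129 and 2.20 (SE 0.16) in C57BL/6J. Without SV129 replicates 1 and 6, its 2 lowest ROSI arrays, the former was 2.18 (SE 0.12). A larger change without them was built in. The difference between the 2 strains' changes was then less than these errors. The strain difference in level under ROSI was 0.63 (SE 0.26) over all arrays and 0.28 (SE 0.11) without them, with overlap in both cases.

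Aqp7 followed the same course. With ROSI it read 11.04, 12.83, 12.83, 12.98 and 12.09 in SV129, where replicates 1 and 6 gave the first and the last value. In C57BL/6J the readings were 12.95, 12.91, 12.99 and 12.92. Control arrays lay between 10.50 and 10.64 in SV129 and between 10.45 and 10.83 in C57BL/6J. The change of this glycerol channel was 1.77 (SE 0.36) in SV129, 2.30 (SE 0.06) without both arrays, and 2.29 (SE 0.09) in C57BL/6J. Under ROSI the strains differed by 0.59 (SE 0.36), and by 0.07 (SE 0.05) without them.

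Pdk4 had the largest change among the 5 in C57BL/6J, but not in SV129, where those of Gpd1 and Aqp7 over all arrays, and of Aqp7 without replicates 1 and 6, were larger. Its ROSI values were 9.59, 11.59, 11.33, 11.60 and 10.64 in SV129 and 11.69, 11.77, 11.71 and 11.76 in C57BL/6J. Controls were 8.86, 8.99, 9.56 and 9.53 in SV129. They were lower in C57BL/6J, at 8.61, 8.50, 8.46 and 8.84, with no overlap. The change was thus 3.13 (SE 0.09, 8.75-fold) in C57BL/6J and 1.72 (SE 0.42, 3.29-fold) in SV129, or 2.27 (SE 0.20) without replicates 1 and 6. The strain difference turned with the drug. C57BL/6J was lower by 0.63 (SE 0.20) in control and higher by 0.78 (SE 0.38) with ROSI, or by 0.23 (SE 0.09) without both SV129 arrays, with no overlap in any of these.

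Mpc1 had the smallest change of the 5 in C57BL/6J, and in SV129 the smallest after Pck1. ROSI arrays read 12.34, 12.65, 12.82, 12.90 and 12.45 in SV129 and 12.96, 12.97, 13.00 and 12.88 in C57BL/6J. Controls were between 11.66 and 11.83 and between 11.76 and 11.99, and neither strain's ROSI arrays overlapped them. The change was 0.89 (SE 0.11) in SV129, 1.05 (SE 0.08) without both arrays and 1.09 (SE 0.06) in C57BL/6J. The identity of this cluster (6803775) is uncertain. Its number falls between those of Mok and Cinp, and the 6 clusters nearest by number belong to chromosome 12, where RefSeq lists the pseudogene Mpc1-ps between the same 2 genes, while Mpc1 is on chromosome 17. A second cluster (6848580), annotated with both Mpc1 and Ppcs, has its 6 neighbours on chromosome 17. Its change was 1.10 (SE 0.17) in SV129, 1.37 (SE 0.08) without both arrays, and 1.45 (SE 0.07) in C57BL/6J, and the 2 clusters had r = 0.99 over the 35 arrays. The sequences of gene and pseudogene were not compared here, so the Mpc1 values may come from either locus or both.

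**Figure D2:**
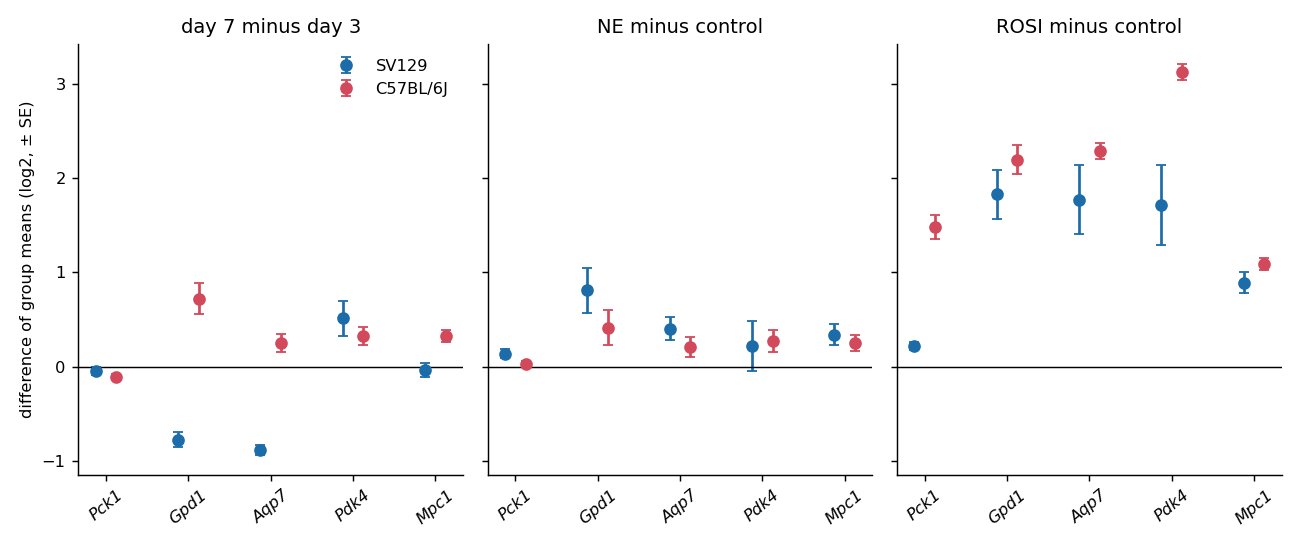
Difference of group means on the log2 scale (y axis, bars are SE) for the 5 genes (x axis) in each strain, from day 3 to day 7 control, with NE and with ROSI. With ROSI, the change of Pck1 was 1.48 in C57BL/6J and 0.21 in SV129. From day 3 to day 7, that of Gpd1 was -0.77 in SV129 and 0.72 in C57BL/6J.

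The strain difference of Pck1 was then set beside those of the other 4 genes in every condition. Under ROSI, C57BL/6J exceeded SV129 by 1.28 (SE 0.13, 2.43-fold), and by 1.28 (SE 0.14) without SV129 replicates 1 and 6. For Gpd1, Aqp7, Pdk4 and Mpc1 this difference in level fell to between 0.07 and 0.28 when both arrays were left out. Both were the lowest of SV129 ROSI for these 4 genes, but not for Pck1. A smaller difference of the 4 without both arrays was thus built in. The change of Pdk4 from control still differed between the strains without them, at 3.13 (SE 0.09) in C57BL/6J and 2.27 (SE 0.20) in SV129. By the difference in level under ROSI, Pck1 ranked 10 of 17958 clusters, and 8 without both arrays. Its gap of 0.80 to all other arrays was the widest of any cluster, with Kcne3, a potassium channel subunit, next at 0.79 and Abhd1, a hydrolase, at 0.67. All C57BL/6J ROSI arrays lay above every other array in 230 clusters, 1.28% of all. These ranks describe a gene chosen for this pattern.

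Counted by overlap, strains were apart in 2 of 5 genes under ROSI (Pck1 and Pdk4), against 5.03% of all clusters. In control it was 1 of 5 (Pdk4) against 8.87%, and with NE 0 of 5 against 6.83%. At day 3 it was 4 of 5 against 21.2%, all 4 lower in C57BL/6J. Gpd1 was lower there by 1.23 (SE 0.08), with 11.45, 11.62, 11.49 and 11.63 in SV129 against 10.40, 10.15, 10.43 and 10.28. Aqp7 was lower by 1.07 (SE 0.07), Pdk4 by 0.44 (SE 0.06) and Mpc1 by 0.25 (SE 0.07). Pck1 differed the other way, by 0.07 (SE 0.04), with overlap. The adipocyte markers averaged 0.57 (SE 0.04) lower in C57BL/6J at day 3, and 0.37 (SE 0.11) higher in control. At day 3 the 6 macrophage markers averaged 0.36 (SE 0.06) higher in C57BL/6J, with 7.74 to 7.89 in SV129 against 8.06 to 8.27, and the progenitor markers 0.22 (SE 0.06) higher. The part of these markers in the day 3 differences was not tested.

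**Figure D3:**
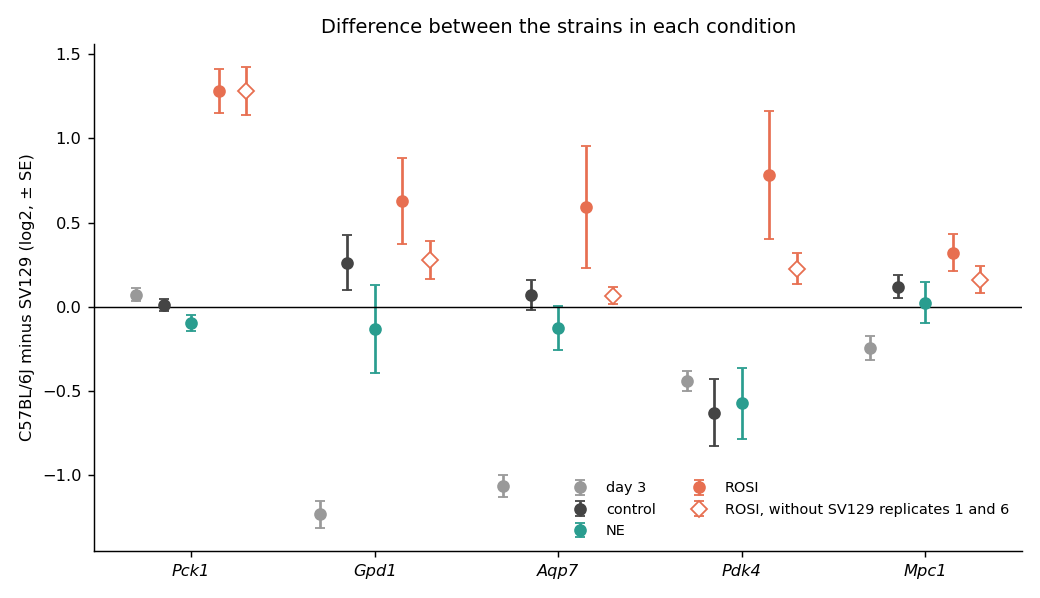
C57BL/6J minus SV129 on the log2 scale (y axis, bars are SE) for each gene (x axis) and condition (colour), with open diamonds for ROSI without SV129 replicates 1 and 6. The diamond of Pck1 stays at 1.28, while those of the other 4 genes lie between 0.07 and 0.28. Both arrays left out were the lowest of their group for these 4 genes, but not for Pck1.

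The 35 arrays share the 8 groups and include SV129 ROSI replicates 1 and 6. Across them, Gpd1, Aqp7, Pdk4 and Mpc1 had pairwise correlations from 0.90 to 0.96. Pck1 correlated with these genes at 0.68 to 0.72. Without SV129 ROSI replicates 1 and 6 these ranges were 0.91 to 0.96 and 0.69 to 0.73. Over all 35 arrays, the clusters most like Pck1 by Pearson's r were Kcne3 (0.93), Gabra5 (0.91) and Abhd1 (0.90). Abhd1 went from 9.24 in both strains' controls to 9.95 in SV129 ROSI and 11.24 in C57BL/6J ROSI. Gpd1 was nearest to Pcx, the pyruvate carboxylase of the same route (0.99), to Mgll, the lipase that frees glycerol from monoglyceride (0.99), and to Tob1, an antiproliferative protein (0.98). Nearest to Aqp7 were Gpat3, an acyltransferase that uses glycerol 3-phosphate (0.99), Rxrg, a partner receptor of PPARG (0.99), and Idh3a, a subunit of a dehydrogenase of the citric acid cycle (0.99). Pdk4 was nearest to Acer2, a ceramidase (0.99), to Qk, an RNA-binding protein (0.98), and to Trap1, a mitochondrial chaperone (0.98). For Mpc1 the nearest were Crat, the carnitine acetyltransferase (0.99), Retsat, the retinol saturase (0.98), and C9orf72 (0.98).

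**Figure D4:**
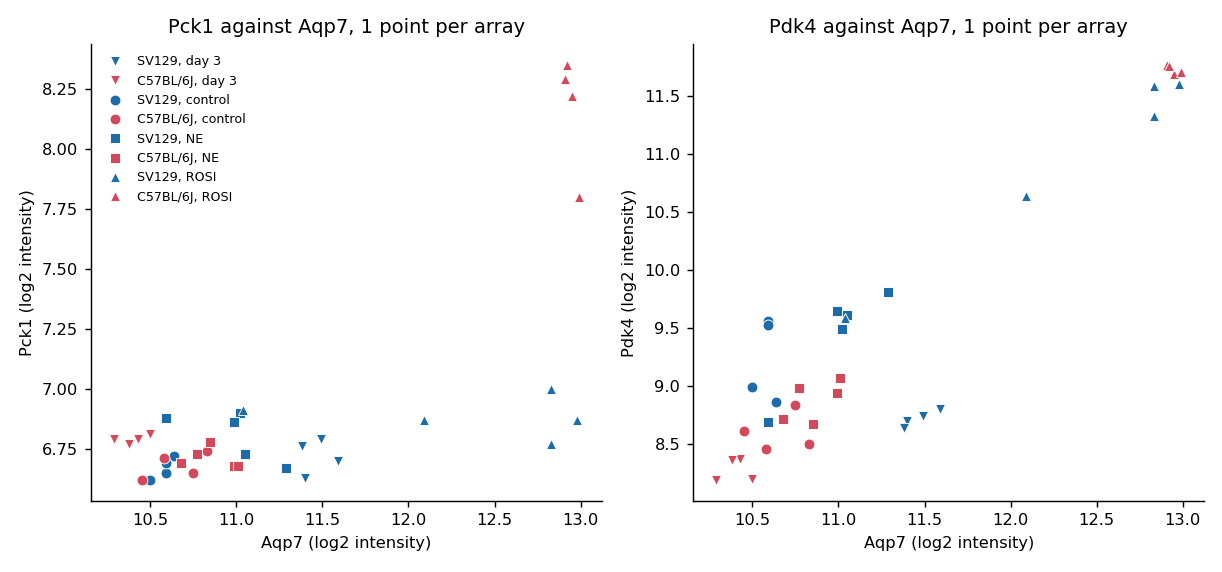
Log2 intensity of Pck1 (left) and Pdk4 (right) against that of Aqp7 on each of the 35 arrays, with colour for strain and symbol for condition. Arrays with high Aqp7 had high Pdk4 in both strains, whereas the 3 SV129 ROSI arrays with Aqp7 at 12.83 to 12.98 had Pck1 between 6.77 and 7.00.

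NE was compared with control to ask whether the adrenergic stimulus moved these genes, a contrast that the choice of the genes did not use. None of the 5 passed limma at an adjusted p of 0.01 with strain as a covariate. None of the 17958 clusters did either (0%), although 2053 of them (11.4%) and 4 of the 5 genes had an unadjusted p under 0.05. Gpd1 read 11.62, 10.73, 11.81, 11.64 and 12.12 with NE in SV129, and 11.12, 11.67, 11.22, 11.57 and 11.67 in C57BL/6J. Both groups overlapped their controls. Its change was 0.61 (SE 0.15, limma adjusted p = 0.0862). That of Mpc1 was 0.29 (SE 0.07, limma adjusted p = 0.0777) and that of Aqp7 0.31 (SE 0.08, limma adjusted p = 0.0957). For Pdk4 it was 0.24 (SE 0.13, limma adjusted p = 0.500) and for Pck1 0.08 (SE 0.04, limma adjusted p = 0.394). SV129 NE replicate 2 was the lowest array of its group for Gpd1, Aqp7, Pdk4 and Mpc1. Without it, Gpd1 passed (0.70, limma adjusted p = 0.00903), as did Mpc1 (0.34, limma adjusted p = 0.00604), and 63 clusters were called (0.351%). Neither gene passed when any other single array was left out. Since the array left out was the lowest of its group for both genes, a larger change without it was built in. Without SV129 NE replicate 2, the change of Pck1 was 0.07 (limma adjusted p = 0.440). Cell type markers differed too, though none of 8 adipocyte and 6 macrophage markers passed. The adipocyte markers had a median change of 0.35, with list means of 10.62 to 10.98 in SV129 control and 10.98 to 11.65 with NE, and of 10.99 to 11.35 and 11.16 to 11.43 in C57BL/6J. The macrophage markers had a median of -0.28, with 8.51 to 8.63 in SV129 control against 8.10 to 8.38 with NE, and 8.63 to 8.89 against 8.51 to 8.69 in C57BL/6J. Their part in the members' NE values was not tested.

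The day 7 controls were compared with the untreated day 3 cultures for the course of culture itself, so this comparison and those with both drugs share the same control arrays. Pdk4 was the 1 gene of 5 that passed, against 15.3% of all clusters. It read 8.70, 8.74, 8.64 and 8.80 at day 3 and 8.86, 8.99, 9.56 and 9.53 at day 7 in SV129, and 8.20, 8.19, 8.37 and 8.36 at day 3 against 8.61, 8.50, 8.46 and 8.84 in C57BL/6J. Neither strain's days overlapped. The rise was 0.42 (SE 0.09, limma adjusted p = 0.0035). It did not pass with all 35 arrays in one model (limma adjusted p = 0.117) or without the strain term (limma adjusted p = 0.066).

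Gpd1 averaged to almost no change over the strains (-0.03, SE 0.20, limma adjusted p = 0.951), with opposite signs in the strains. In SV129 its mean was 11.55 at day 3 and 10.77 at day 7, and in C57BL/6J it was 10.31 and 11.04, with no overlap between days in either strain. In the model over all 35 arrays the change was -0.77 (limma adjusted p = 0.0116) in SV129 and 0.72 (limma adjusted p = 0.040) in C57BL/6J, so neither passed 0.01. Aqp7 fell by 0.88 in SV129 (limma adjusted p = 0.0047), with a change of 0.25 in C57BL/6J (limma adjusted p = 0.613). Over both strains the change was -0.32 (limma adjusted p = 0.141) for Aqp7, 0.15 (limma adjusted p = 0.116) for Mpc1 and -0.08 for Pck1 (limma adjusted p = 0.0726). Between the days 5 of 6 macrophage markers were higher at day 7, with list means of 7.74 to 7.89 at day 3 and 8.51 to 8.63 at day 7 in SV129, and of 8.06 to 8.27 and 8.63 to 8.89 in C57BL/6J. Their part in the members' values was not tested.

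The other genes of these pathways were taken from 3 lists with 42 entries, of which 33 had a cluster of their own. Mdh1, Eno1, Gapdh, Gk, Lipe, Mpc2, Pdp1, Pdp2 and Ldha were not analysed here for want of one. With ROSI, 23 of the 33 were higher, 3 were lower and 7 did not pass, against 27.9% of all clusters called in either direction. Without SV129 ROSI replicates 1 and 6, 25 were higher and 3 lower, against 34.1% of all clusters called in either direction. The same 26 were among them, and the changes of those 26 were 1.05 to 1.35 times as large. The values that follow are therefore for all arrays. These lists, too, were drawn up with earlier results known.

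On the route to glycerol 3-phosphate, 9 of 12 genes rose with ROSI and 3 did not pass, with a median change of 0.50 against 0.01 over all clusters. Pcx, which makes the oxaloacetate that the carboxykinase uses, rose by 1.49 (SE 0.14, limma adjusted p = 1.19e-06). Slc25a10, a mitochondrial dicarboxylate carrier, rose by 1.32 (limma adjusted p = 5.07e-07), and Mdh2, the mitochondrial malate dehydrogenase, by 0.80 (limma adjusted p = 3.55e-06). Pck2, the mitochondrial carboxykinase, had a change of -0.16 (limma adjusted p = 0.072). Its group means were 9.52 and 9.42 in SV129 control and ROSI, and 9.76 and 9.54 in C57BL/6J. Gpd1l, a relative of Gpd1, rose by 0.38, and Gpd2, the mitochondrial dehydrogenase that consumes glycerol 3-phosphate, by 0.59. For Pcx the SV129 group means were 10.52 in control and 11.94 with ROSI. Those of C57BL/6J were 10.82 and 12.39.

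Among 5 genes of glycerol release and uptake, 3 rose and 2 did not pass (median 1.30). Aqp11, an aquaporin of internal membranes, rose by 1.95 (SE 0.19, limma adjusted p = 1.47e-06). Its mean was 6.60 in control and 8.24 with ROSI in SV129, with 6.63 and 8.92 in C57BL/6J. Mgll rose by 1.56 and Pnpla2, the first lipase of triglyceride breakdown, by 1.30. The channels Aqp3 (0.14, limma adjusted p = 0.0368) and Aqp9 (-0.17, limma adjusted p = 0.0917) did not pass. Aqp3 and Aqp7 are neighbours on chromosome 4.

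Of 16 genes of pyruvate handling, 11 rose, 3 fell and 2 did not pass with ROSI (median 0.82). All 5 measured subunits of the pyruvate dehydrogenase complex rose, namely Pdha1 by 0.76, Pdhb by 1.18, Dlat by 1.22, Dld by 1.11 and Pdhx by 1.24. Among the kinases that inhibit this complex, Pdk2 rose by 1.73 (SE 0.16, limma adjusted p = 1.20e-06). Control and ROSI means were 9.55 and 11.04 in SV129 and 9.70 and 11.68 in C57BL/6J. Pdk3 fell by 0.63 (limma adjusted p = 1.10e-04) while Pdk1 had a change of -0.17 (limma adjusted p = 0.240). Ldhb, a lactate dehydrogenase subunit, rose by 1.40. The lactate and pyruvate transporters split, with Slc16a1 up by 1.01 and Slc16a3 down by 1.26 (SE 0.20, limma adjusted p = 1.09e-04). Pkm, the muscle-type pyruvate kinase, fell by 0.20.

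**Figure D5:**
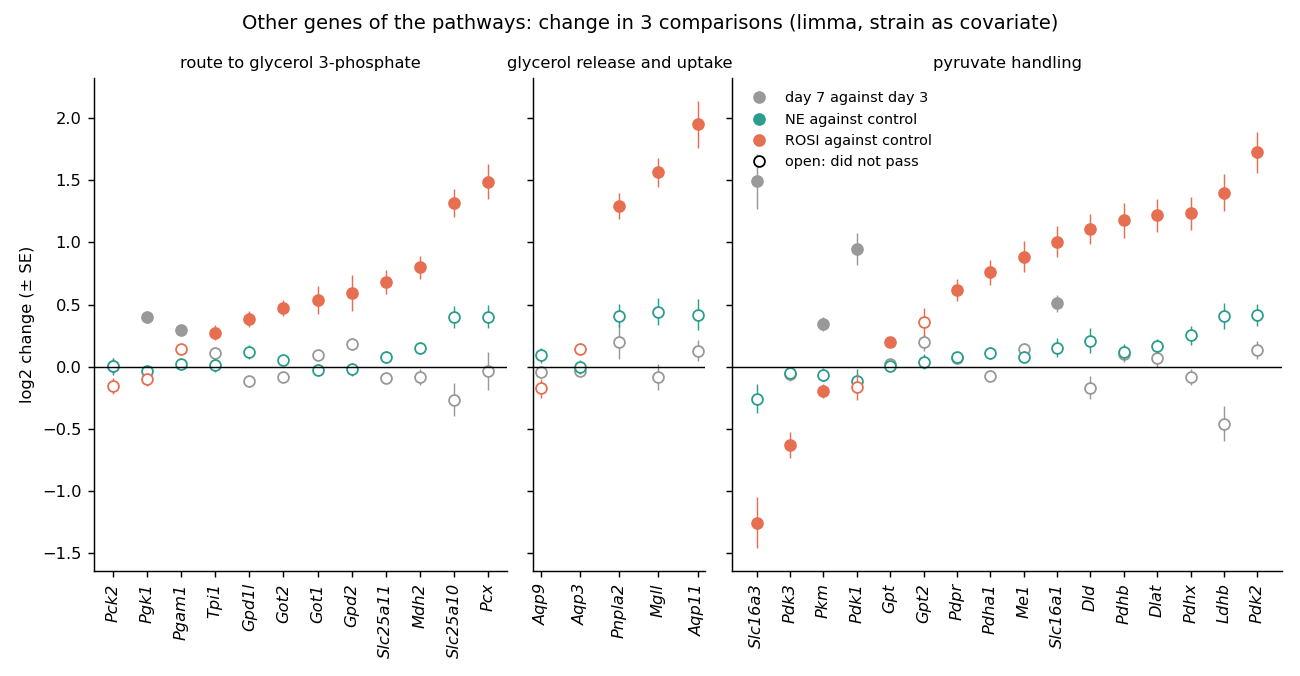
Log2 change with SE (y axis) of the 33 other pathway genes (x axis, in the order of their ROSI change within each list) for day 7 against day 3, NE against control and ROSI against control. Filled circles passed limma at an adjusted p of 0.01 and open ones did not. With ROSI 23 were higher and 3 lower, with NE none passed, and 6 were higher at day 7.

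With NE, 0 of the 33 passed, and 13 had an unadjusted p under 0.05. The largest changes were those of Mgll (0.44, limma adjusted p = 0.0876), Aqp11 (0.42, limma adjusted p = 0.148) and Pdk2 (0.42, limma adjusted p = 0.0628). Without SV129 NE replicate 2, Mgll and Pdk2 passed (limma adjusted p = 0.00588 each), against 0.351% of all clusters. From day 3 to day 7, 6 of the 33 rose and none fell, against 15.3% of all clusters called in either direction, a share close to that of the list. Slc16a3, the exporter of lactate, rose by 1.49 (SE 0.22, limma adjusted p = 1.41e-04). Its mean at days 3 and 7 was 8.54 and 10.79 in SV129, against 9.24 and 9.98 in C57BL/6J. Pdk1 rose by 0.95 (limma adjusted p = 6.29e-05), Slc16a1 by 0.51, Pgk1, a kinase of glycolysis, by 0.40, Pkm by 0.34 and Pgam1, a mutase of glycolysis, by 0.29.

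Between strains the number of these genes called depended on the arrays in the model. In control 0 of 33 passed, against 0.407% of all clusters (73 clusters, with 3063 at an unadjusted p under 0.05). Without SV129 control replicate 1, 2 of the 33 passed, against 2.25% of all clusters. Without its replicate 4, 3 did, against 1.17%. At day 3, 2 of 33 passed, against 0.785%: Pcx was lower by 0.85 in C57BL/6J (limma adjusted p = 0.00756) and Pnpla2 by 0.71 (limma adjusted p = 0.00598). Leaving out any 1 of the 8 day 3 arrays ended both calls, with 0.178% to 0.479% of all clusters called. With the day 3 arrays alone, 17 of 33 passed (15 lower in C57BL/6J), against 8.26% of all clusters. Without SV129 ROSI replicates 1 and 6, whose spread enters the model of all arrays, 10 passed, all lower, against 3.20%. With NE, 3 of 33 passed, against 1.71%, with Pck2 higher by 0.39, Gpt2, an alanine aminotransferase, higher by 0.52 and Pgk1 lower by 0.32 in C57BL/6J. Without SV129 NE replicate 1, 4 or 5 or C57BL/6J NE replicate 5 or 6, 1 of the 33 passed. The share of all clusters was then 0.763% to 1.03%. With ROSI, 3 of 33 passed, against 2.52%, with Slc16a3 lower by 1.00, Pgk1 lower by 0.26 and Pdpr, a regulator of the phosphatase that switches pyruvate dehydrogenase on, higher by 0.39. None of the 33 passed without SV129 ROSI replicate 1, without its replicate 6, or without any 1 of the C57BL/6J ROSI arrays. The share of all clusters in these fits was 1.11% to 1.44%. Without SV129 ROSI replicate 2, 5 of the 33 passed, against 4.98% of all clusters. Without replicate 3, 6 passed against 3.94%, and without replicate 4, 11 passed against 6.88%.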

How the data were processed

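Per the submitters' processing notes, the authors computed the deposited log2 intensities in Affymetrix Power Tools by RMA, which corrects background, normalizes the arrays to each other and summarises the probes of a transcript cluster; the sources used here give no versions. By the methods, outlying RNA samples were left out before analysis. Values were used as deposited. Because the treatment note lists NE and ROSI for all cultures alike, groups follow the treatment label of each. Of 17958 clusters, 15621 carry 1 gene symbol, 1370 several and 967 none. No 2 arrays were identical. A microarray has no sequencing depth, and the number of arrays limits the precision.

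Models were fitted over all clusters with limma 3.58.1 (R 4.3.3), two-sided, with moderated variances, and called at a Benjamini-Hochberg adjusted p under 0.01. NE with control, ROSI with control and day 7 with day 3 used the arrays compared, with strain as a covariate. Strain and within-strain contrasts used all 35 arrays in 8 groups. SEs of the members' differences within a strain or condition come from the SDs of the 2 groups. The code was tested on simulated data. The members and lists were chosen with earlier results of these data known. Genes named are the members, 11 relatives, up to 3 per direction, list and comparison by size among those that passed, 3 markers, and the 3 clusters most like each member; others named in a list or rank were chosen after their values were seen. Motifs were searched in RefSeq promoters (GRCm38.p6). Alternatives were another threshold, no strain term, all arrays, the arrays of a condition alone, other scaling, a filter on dim clusters, an intensity trend, a replicate block, and leaving out arrays; within-strain values were added after the data were seen.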

Additional observations from a re-analysis of the deposited data

Results flagged for a closer look

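From day 3 to day 7 without drug, Gpd1 moved in opposite directions in the strains on every array, by -0.77 in SV129 and by 0.72 in C57BL/6J (4 arrays per group). This difference between the strains was not tested. Over the same days the mean of the 8 adipocyte markers was 11.39 and then 10.78 in SV129, against 10.82 and then 11.15 in C57BL/6J. Of 40 combinations of gene and group, 0 held an array whose gap to the rest passed Dixon's limit, where chance flags about 1 in 20.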

How the results depend on the processing

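The replicate numbers showed no clear pairing of the cultures, though 7 pairs per comparison are too few to exclude it. Same-numbered deviations correlated between -0.31 and 0.30 for NE, -0.04 and 0.10 for day and -0.14 and 0.16 for ROSI. Of the 7 arrays in each, 3, 2 and 1 correlated best with their own number. With the replicate block, ROSI against control called 2863 clusters in place of 5004 and day 7 against day 3 called 1415 in place of 2745, while the change over the days was 0.12 for Gpd1 and 0.44 for Pdk4 (limma adjusted p = 0.0133). The Pdk4 rise over the days was 0.42 without a strain term and with all 35 arrays, 0.51 within SV129 and 0.325 within C57BL/6J, none of which passed. Within strains, over the days, the change was -0.885 in SV129 and 0.252 in C57BL/6J for Aqp7, 0.72 in C57BL/6J for Gpd1 and -0.036 in SV129 for Mpc1, and 726 clusters were called in C57BL/6J. Leaving out 1 array gave Gpd1 -0.145 to 0.06 (without SV129 control replicate 4). For NE, leaving out 1 array gave Gpd1 0.54 to 0.70, Mpc1 0.27 to 0.34, 0 to 63 clusters and 0 to 2 pathway genes. NE called 1 cluster with all 35 arrays, 1 after quantile normalization and 38 within SV129. At a threshold of 0.05 the counts were 12 for NE, 4554 for day, and 442, 530, 932 and 1482 for the strains at day 3, in control, with NE and with ROSI, with 7, 4, 5 and 9 pathway genes. With the arrays of a condition alone, strain calls were 1483 (17 pathway genes) at day 3, 0 in control and 8 (0 pathway genes) with ROSI. Without SV129 ROSI replicates 1 and 6 they were 574 (10), 246 (1), 671 with NE and 160 (0). After quantile normalization they were 223 (1) in control and 667 (5) with ROSI, and after median centring 242 (1) in control. In control, 31 clusters were higher and 42 lower in C57BL/6J as deposited, 69 and 154 after quantile normalization, and 54 and 188 after centring. Leaving out 1 array gave 32 to 86 (0 pathway genes) at day 3, 0 to 404 (0 to 3) in control, 137 to 470 (1 to 3) with NE and 200 to 1235 (0 to 11) with ROSI. The causes were not tested. The strain counts moved with single arrays, and dim clusters such as Pck1 outside C57BL/6J ROSI lie near background.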
